A study of Mus musculus with 7 samples.

Results

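Oct4, the POU factor encoded by Pou5f1, and genes tied to it and to Sox2 were followed in mouse embryonic stem cells (ESCs). The 7 genes were Pou5f1, Sall4, Zscan10, Utf1, Fgf4, Fbxo15 and Spp1 and were taken by name from 31498 genes of the GENCODE M1 annotation of mm9. The study asked whether a distal super-enhancer downstream of Sox2 is needed for Sox2 expression. All RNA-seq clones derive from F123, an F1 hybrid ESC line of a castaneus (CAST) and 129 cross, and each genotype is 1 clone with 1 library. The wild type clone carries the enhancer on both alleles, CAST+/129- lacks it on the 129 allele, CAST-/129+ lacks it on the CAST allele, and CAST-/129- lacks it on both. Transfected cells were recovered on mouse embryonic fibroblast feeders and selected with puromycin. Whether the wild type clone went through these steps is not stated. Cells grew on gelatin alone for 2 passages before they were collected. ChIP-seq was performed in unedited cells, for H3K4me3 and H3K27ac in F123 and for H3K27ac in J1, another mouse ESC line, with 1 library each.

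Sox2 and Oct4 bind side by side to a composite element, in which an HMG-box site for Sox2 lies a few bases from a POU site for Oct4. Elements of this kind are known for Pou5f1 itself and for Fgf4, Utf1, Fbxo15 and Zscan10. Spp1 is grouped with them as a target of Sox2 and Oct4, without an element of this form being taken as known. Sall4 encodes a zinc finger factor of the same network. In ESCs Sox2 and Oct4 maintain genes that keep the cells undifferentiated, and Oct4 is kept within a narrow range of levels. H3K4me3 marks active promoters, and H3K27ac marks active promoters and enhancers.

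Matches to the composite element near the members are shown first, since they are the sequence through which Sox2 and Oct4 can bind together. The search used CNTTGT, then 1 or 4 bases of any kind, then ATGCNAAT, on both strands within 5 kb of the start, which is the 5′-most annotated start of a protein-coding transcript. Each site is written 5′ to 3′ on the strand of the match with its HMG and POU sites in capitals. Mismatches were allowed in the POU site alone.

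Fgf4 site, no mismatch, plus strand of mm9 chr7:152050293-152050322: aaaactCTTTGTttggATGCTAATgggata
Utf1 site, 1 mismatch, minus strand of chr7:147131572-147131601: gagccgtCATTGTtATGCTAGTgaagtgcc
Pou5f1 site, 2 mismatches, minus strand of chr17:35640986-35641015: catgcacCTTTGTtATGCATCTgccgtctg
Zscan10 site, 2 mismatches, minus strand of chr17:23740084-23740113: tgtggtCATTGTtctcATTCTTATtaatta

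The Fgf4 site lies in the 3′ UTR, 3017 bp after the start, and is the single match without a mismatch among the members. The Utf1 site lies 1899 bp after the start and downstream of the gene's last exon. The Pou5f1 site lies 1981 bp upstream of the start, and the Zscan10 site lies in an intron, 2276 bp after the start. Fbxo15 had matches with 2 mismatches at 668 bp upstream and, in an intron, at 4990 bp after the start. Sall4 and Spp1 had no match with these letters in this window. With up to 1 mismatch, 2 of the 7 members held a match, beside 4.83% of 22367 protein-coding genes. With up to 2 mismatches, 5 members held one, beside 39.9% of those genes, so the looser matches are common.

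H3K27ac at the matches was read from 1 kb around each, over the mean of the same chromosome and library. Of 10871 matches with up to 2 mismatches near all protein-coding starts, 8.09% were over 5-fold in F123 and 7.02% in J1, and the medians were 0 and 0.781. The Pou5f1 site was at 95.6-fold in F123 (95% interval 75.6 to 119) and at 58.4-fold in J1. The Utf1 site was at 69.3-fold and 50.1-fold, and the upstream Fbxo15 site at 66.8-fold and 59.0-fold. The Fgf4 site was at 60.1-fold and 37.4-fold, and the Zscan10 site at 34.3-fold and 28.8-fold. All 5 of these were over 30-fold in F123, where 1.28% of the 10871 matches were. Those matches lie near all protein-coding starts, and matches near expressed genes as a group were not compared. In F123, 1 kb stretches without a match were also high near members. They reached 145-fold at Sall4, 121-fold at Pou5f1, 115-fold at Zscan10, 98.6-fold at Fgf4 and 56.6-fold at Spp1. All of these but Spp1 were above the fold of the Pou5f1 site. The part of the matches in the H3K27ac folds was not tested. The intronic Fbxo15 match held 3 alignments in F123, at 5.57-fold (1.15 to 16.3), and was at 4.73-fold in J1. H3K4me3 at the same sites, from another library whose folds were not compared with those of H3K27ac, was between 1.54-fold at the intronic Fbxo15 match and 13.1-fold at the Utf1 site.

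RNA levels were measured as FPKM, from distinct alignments on the sense strand of a gene's own exonic bases, with all alignments on genes as the library size. The wild type library held 24848422 of them, CAST+/129- 12458881, CAST-/129+ 6058939 and CAST-/129- 5831199. Intervals are exact 95% Poisson intervals, or exact binomial intervals for a ratio, and cover counting error only. With 1 library per genotype no difference between genotypes was tested. Both alleles are counted together, and fewer cells with a transcript cannot be told apart from less transcript per cell. Sox2 itself was at 175 FPKM in the wild type clone, while CAST+/129- had 82.0, CAST-/129+ had 73.1 and CAST-/129- had 7.40, which follows the labels.

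No member passed the 3-fold threshold of the study's methods, a difference of log2(FPKM + 4) of at least log2 of 3, in any mutant library. Among all 31498 genes, 0.305% were down and 0.321% up past 3-fold in CAST+/129-, 0.330% down and 0.473% up in CAST-/129+, and 0.511% down and 0.819% up in CAST-/129-. Among the 7014 genes with a mean of at least 10 FPKM, which include all 7 members, these shares were 0.741% down and 1.24% up in CAST+/129-, 0.784% down and 1.70% up in CAST-/129+, and 1.43% down and 2.41% up in CAST-/129-. With shares this small, 0 of 7 is near the background. The median log2 difference over the members was -0.27 in CAST+/129-, 0.01 in CAST-/129+ and -0.31 in CAST-/129-, beside 0.06, 0.00 and -0.06 over the 7014 genes. In CAST-/129-, 6 of the 7 members were below the wild type level beyond counting error, and Spp1 was above it when distinct alignments were counted. Below and above in the same sense were 42.9% and 34.4% of the 7014 genes, since counting intervals are narrow at these depths, and nothing particular to the members is read from that count.

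**Figure D1:**
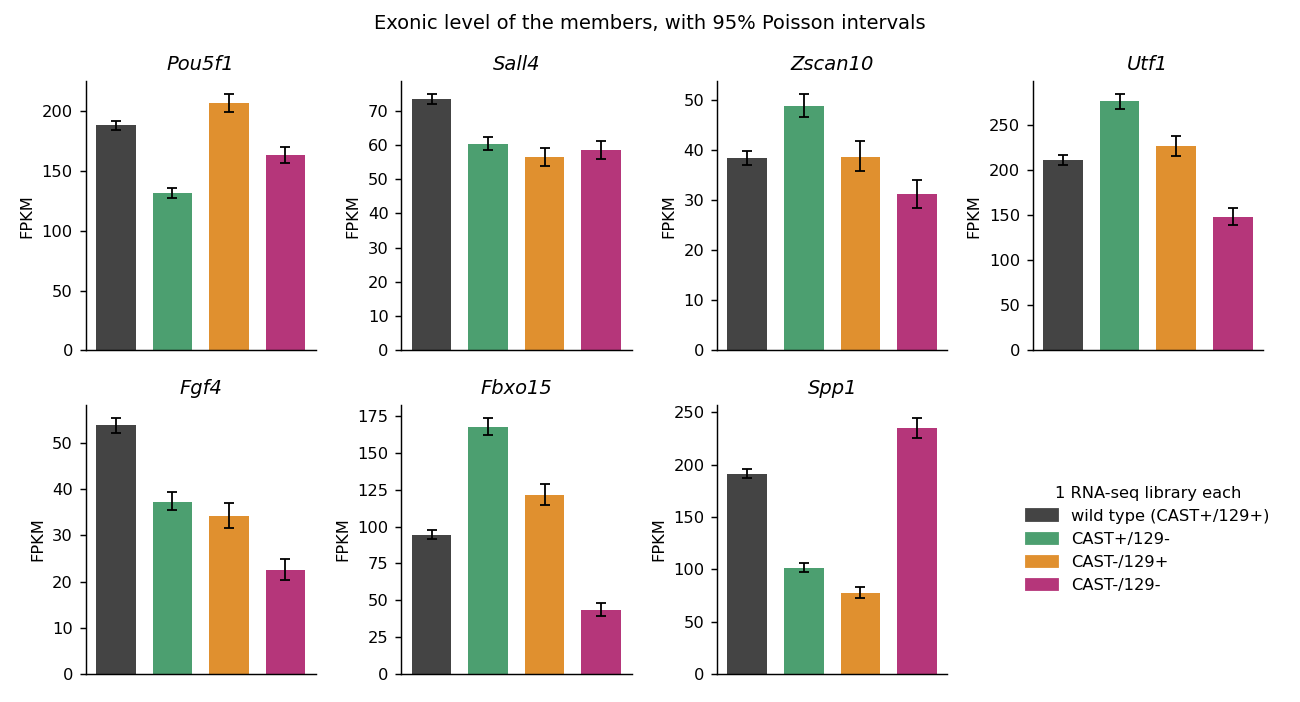
FPKM of each of the 7 genes in the 4 RNA-seq libraries, 1 bar for each library, with exact 95% Poisson intervals. Fgf4 and Fbxo15 have their lowest bar in CAST-/129- (22.5 and 43.4 FPKM) and Spp1 its highest (235 FPKM), while the 4 bars of Sall4 lie between 56.5 and 73.5 FPKM.

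Pou5f1 (ENSMUSG00000024406, chr17:35642982-35647721, plus strand) encodes Oct4, which shares the composite element with Sox2. It was at 188 FPKM (185 to 192) in the wild type clone, while CAST+/129- had 132 (127 to 136), CAST-/129+ had 207 (199 to 215) and CAST-/129- had 163 (157 to 170). The clone that lacks the enhancer on the CAST allele was highest and the clone that lacks it on the 129 allele was lowest, and no neighbours in that order had overlapping intervals. Relative to wild type the levels were 69.9% (67.3 to 72.6), 110% (105 to 115) and 86.7% (82.8 to 90.9). The last is the library in which Sox2 was at 4.23% of wild type.

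The Pou5f1 values depend on how identical reads are treated. In wild type 4.26 reads stood behind each distinct Pou5f1 alignment, against 2.10, 1.93 and 1.71 in the mutant libraries in the order above, where the median of the 7014 genes was 1.97 in wild type and 1.23 to 1.34 in the mutants. Counted as reads, Pou5f1 was at 50.7%, 79.5% and 61.9% of wild type. With the reads of each library first drawn down to the total of the smallest and then collapsed, it was at 64.4%, 96.0% and 73.2%. CAST+/129- was lowest in each of these counts, while the place of CAST-/129+ above wild type was not kept.

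The Pou5f1 annotation also limits the level. An annotated exon of 588 bases held no alignment in any library, and alignments covered 59.8% of the 2256 exonic bases. Over the covered bases alone the levels were 315, 220, 346 and 273 FPKM, with the ratios as before. Of 1962 exonic 50-base stretches, 349 had another exact match in the genome, 336 of them within Rfwd2 on chromosome 1, so that reads could be shared. Outside the shared stretches Pou5f1 was at 71.5%, 104% (98.3 to 111) and 93.6% of wild type, so that CAST-/129+ was no longer above wild type beyond counting error. By exon the ratios ran from 65.4% to 93.4% in CAST+/129-, from 80.4% to 144% in CAST-/129+ and from 75.6% to 138% in CAST-/129-.

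Sall4 (chr2:168573832-168593443, minus strand) encodes a spalt-like zinc finger factor found with Oct4 in ESCs. It was at 73.5 FPKM (72.1 to 74.9) in the wild type clone, while CAST+/129- had 60.4 (58.5 to 62.2), CAST-/129+ had 56.5 (54.0 to 59.1) and CAST-/129- had 58.5 (55.9 to 61.2). Wild type was highest, and CAST-/129- overlapped both of the other mutant libraries. The 3 mutants were thus at 82.1% (79.2 to 85.1), 76.9% (73.2 to 80.8) and 79.7% (75.8 to 83.7) of wild type, the narrowest range of the 7 genes. Counted as reads, Sall4 was at 81.1%, 82.3% and 88.3%, so the order of the mutants was not kept.

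Zscan10 (chr17:23737823-23747986, plus strand) encodes a SCAN-domain zinc finger factor of ESCs. It was at 38.4 FPKM (36.9 to 39.8) in the wild type clone, while CAST+/129- had 48.8 (46.5 to 51.2), CAST-/129+ had 38.7 (35.8 to 41.7) and CAST-/129- had 31.1 (28.5 to 33.9). CAST+/129- was highest and CAST-/129- lowest, while wild type and CAST-/129+ overlapped. The ratios to wild type were 127% (120 to 135), 101% (92.4 to 110) and 81.1% (73.7 to 89.1). Counted as reads they were 136%, 113% and 94.3%, all outside those intervals.

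Utf1 (chr7:147129688-147131011, plus strand) encodes a chromatin-bound factor of undifferentiated cells. By distinct alignments it was the most abundant member per length in wild type over annotated bases, at 211 FPKM (206 to 216). CAST+/129- had 276 (267 to 284), CAST-/129+ had 227 (216 to 238) and CAST-/129- had 148 (139 to 157). The order was that of Zscan10, again with CAST-/129+ and wild type overlapping by a narrow margin. Utf1 was at 131% (126 to 136), 107% (102 to 113) and 70.2% (65.8 to 75.0) of wild type, and at 53.7% (50.2 to 57.5) of CAST+/129- in CAST-/129-. Counted as reads, the ratios to wild type were 137%, 105% and 71.0%. By reads per length Utf1 was below Pou5f1 and Spp1 in wild type, with 14759 reads on 1227 bases. Pou5f1 had 44935 on 2256 and Spp1 32731 on 1648.

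**Figure D2:**
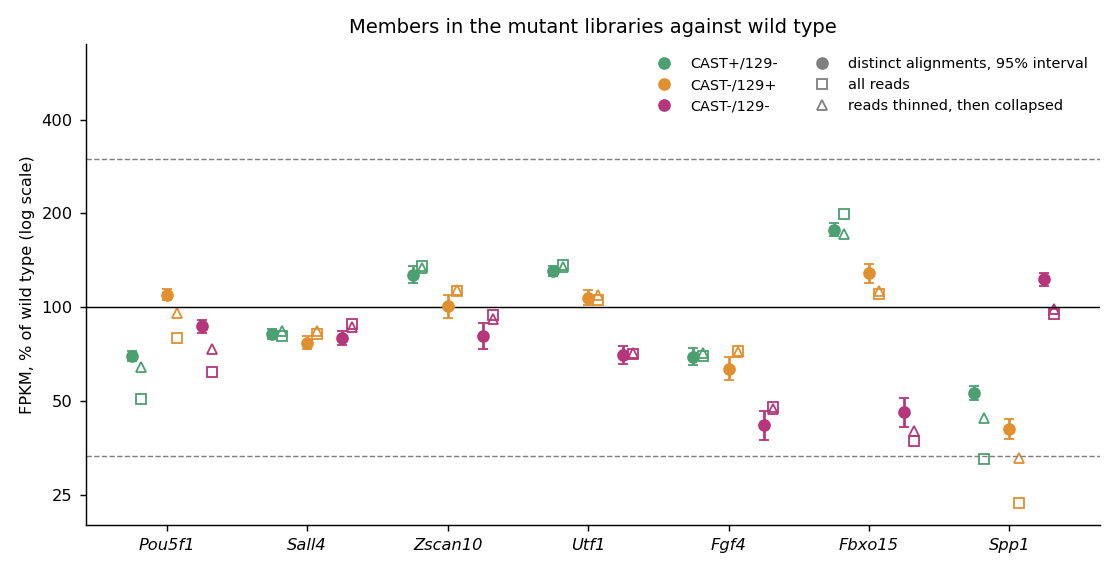
Percent of the wild type FPKM on a log scale for each gene and mutant library, with filled circles for distinct alignments and their exact binomial intervals, open squares for all reads and open triangles for reads thinned to the smallest library and then collapsed. Dashed lines mark 3-fold without the added 4 FPKM. Squares and triangles lie below the circles for Pou5f1 and Spp1 in all 3 mutant libraries.

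Fgf4 (chr7:152047291-152051148, plus strand) encodes a fibroblast growth factor that ESCs secrete and that signals to ERK through Fgf receptors. It was at 53.8 FPKM (52.1 to 55.5) in the wild type clone, while CAST+/129- had 37.3 (35.4 to 39.3), CAST-/129+ had 34.2 (31.5 to 36.9) and CAST-/129- had 22.5 (20.3 to 24.8). Wild type was highest and CAST-/129- lowest, and the libraries with 1 deleted allele overlapped between them. Over the whole gene, Fgf4 was the single member below wild type in all 3 mutants with its lowest level in CAST-/129-. Sall4 was also below wild type in all 3 mutants, and its CAST-/129- and CAST-/129+ levels overlapped. The Fgf4 ratios were 69.4% (65.2 to 73.7), 63.5% (58.3 to 69.1) and 41.8% (37.6 to 46.3), and CAST-/129- was at 60.2% (53.8 to 67.4) of CAST+/129-. By reads the ratios were 69.9%, 72.3% and 47.7%. Exon 2, with 158 of the 4049 wild type alignments, was at 112% (85.7 to 147), 130% (92.5 to 179) and 86.3% (57.1 to 127) of wild type, with intervals that all include the wild type level, while the other exons were at 60.6% to 67.6% in the libraries with 1 deleted allele and at 38.8% and 48.6% in CAST-/129-.

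Fbxo15 (chr18:85104550-85150768, plus strand) encodes an F-box protein and is widely used as a marker of undifferentiated cells. It was at 94.5 FPKM (91.4 to 97.7) in the wild type clone, while CAST+/129- had 168 (162 to 174), CAST-/129+ had 121 (114 to 129) and CAST-/129- had 43.4 (39.1 to 48.1). Both libraries with 1 deleted allele were above wild type and CAST-/129- was below it, with no overlap between any neighbours. The ratios were 178% (169 to 187), 129% (120 to 138) and 46.0% (41.2 to 51.2). The 9 exons with at least 50 wild type alignments ranged between 165% and 195% in CAST+/129- but between 34.6% and 80.5% in CAST-/129-. In CAST-/129+ they ranged between 94.3% and 165%, and exon 7, at 94.3% (70.5 to 124), was not above wild type. The level in CAST-/129- was 25.9% (23.2 to 28.8) of that in CAST+/129-, the widest spread of the members. By reads the ratios were 199%, 111% and 37.1%.

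Fgf4 and Fbxo15 passed 2-fold down in CAST-/129-, as did 4.52% of the 7014 genes. Spp1 passed 2-fold down in CAST-/129+, as did 3.14% of them.

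Spp1 (chr5:104864137-104870069, plus strand) encodes osteopontin, a secreted phosphoprotein that binds integrins and Cd44 and is also made by macrophages, fibroblasts and other cells. It was at 191 FPKM (187 to 195) in the wild type clone, while CAST+/129- had 101 (97.0 to 106), CAST-/129+ had 77.8 (72.4 to 83.5) and CAST-/129- had 235 (225 to 245). The libraries with 1 deleted allele were lowest and CAST-/129- was highest, an order seen in no other member and without overlap. The ratios were 53.0% (50.5 to 55.7), 40.7% (37.8 to 43.8) and 122.99% (117 to 129), and CAST-/129- was at 302% (278 to 328) of CAST-/129+.

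Like Pou5f1, Spp1 had 4.18 reads behind each distinct alignment in wild type and 1.52 to 1.82 in the mutants. By reads it was at 32.5%, 23.6% and 95.02% of wild type, and in CAST-/129+ it passed 3-fold down, as did 0.927% of the 7014 genes. After thinning the reads it was at 44.0%, 32.9% and 98.6%. The place of CAST-/129- above wild type was therefore not kept in either, while the low levels of the libraries with 1 deleted allele were kept over the whole gene. By exon, Spp1 in CAST-/129- ran from 112% of wild type in the last exons, which hold most alignments, to 311% in exon 6, which had 85 wild type alignments. The exons of the libraries with 1 deleted allele were not all low, and ran from 47.7% to 117% in CAST+/129- and from 36.3% to 140% in CAST-/129+. In that order exon 6 was at 113% and 140%, and exon 2 at 94.1% and 105%.

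**Figure D3:**
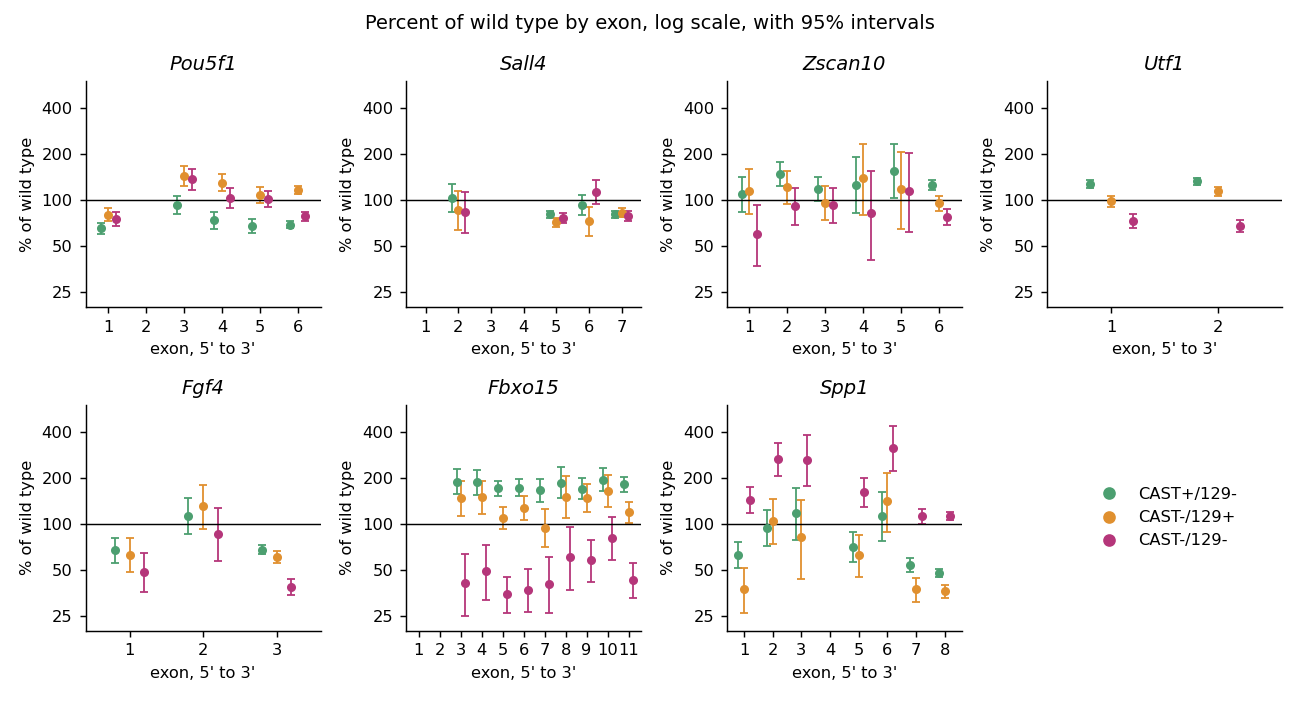
Percent of wild type by exon on a log scale, with exact 95% intervals, for exons with at least 50 wild type alignments. The 9 Fbxo15 exons keep the order of the 3 mutant libraries, while Spp1 exons in CAST-/129- spread from 112% to 311%.

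The summed levels of fibroblast and macrophage markers were highest in CAST-/129-, where Spp1 was above wild type by distinct alignments but not by reads. The summed level of 10 fibroblast markers, which feeder cells express, was 23.1 FPKM in the wild type clone, while CAST+/129- had 96.4, CAST-/129+ had 87.4 and CAST-/129- had 499, where 9 of 10 were past 3-fold up. Col1a1, a fibrillar collagen, was at 3.48, 39.0, 38.9 and 174 FPKM in that order. Thy1, the largest part of the wild type sum, was lower in the libraries with 1 deleted allele, at 11.4, 5.69, 6.28 and 27.7 FPKM. The sum over 8 macrophage markers was 12.4, 23.2, 28.1 and 139 FPKM, led in CAST-/129- by the lysozyme gene Lyz2 at no alignment, 11.7, 14.1 and 95.5 FPKM. Most of the wild type sum was Cd68, a lysosomal glycoprotein gene, which was lower in every mutant, at 11.7, 5.62, 7.62 and 9.14 FPKM. Of these 8, Ptprc, Lyz2 and Tyrobp had no alignment in wild type, and 3 of 8 were past 3-fold up in CAST-/129-. Primitive endoderm markers summed to 111, 22.3, 61.3 and 40.2 FPKM over 6 genes, among them Gata6 at 42.9, 2.94, 6.77 and 4.51 FPKM. The list was mixed, since Foxa2 was at 1.36, 0.643, 9.05 and 11.4 FPKM and Sox17 at 4.73, 1.78, 6.54 and 4.95 FPKM. The part of these cells in the Spp1 levels was not tested.

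Of the ES cell markers other than Pou5f1, Dppa5a was at 461, 530, 547 and 480 FPKM. Of all 9 measured, 5 were past 3-fold down in CAST-/129-, among them Nanog at 130, 115, 76.5 and 38.9 FPKM and Klf4 at 120, 19.3, 13.9 and 8.29 FPKM, and Dppa3 was up, at 6.86, 89.4, 108 and 31.1 FPKM. In both libraries with 1 deleted allele 2 of 9 were down and 1 was up. Trophectoderm markers, 7 measured, summed to 21.1, 341, 574 and 546 FPKM, with keratin genes Krt8 and Krt18 making up most of it. Hand1, Eomes, Gata3 and Elf5 were lower in CAST-/129- than in both libraries with 1 deleted allele, while Cdx2, low throughout, was highest there. Hand1 was at 0.524, 43.9, 43.8 and 19.8 FPKM, and Eomes at 3.89, 18.3, 28.3 and 13.1 FPKM. Primed epiblast markers, 5 measured, summed to 59.0, 142, 214 and 190 FPKM, of which Dnmt3b, a DNA methyltransferase gene, held 47.4, 106, 142 and 106 FPKM. Zic2 was at 7.89, 4.51, 6.27 and 8.23 FPKM. The mutant libraries thus differed from wild type in many markers of state and lineage while Pou5f1 and Sall4 stayed within 3-fold.

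Among 8 other genes with a reported Sox2-Oct4 element, 2 were up and 3 down past 3-fold in CAST-/129-, with a median log2 difference of -0.34 against -0.08 over genes with a mean of at least 1 FPKM. The 3 lower genes were Sox2, Nanog and Nr0b1. Sox2 is the gene whose enhancer was deleted, so its place in this count and median says nothing of the element. Nr0b1, a nuclear receptor gene, was at 46.7 FPKM in the wild type clone, while CAST+/129- had 9.41, CAST-/129+ had 7.94 and CAST-/129- had 8.16. The higher genes were Lefty1, a Nodal inhibitor at 6.50, 23.9, 43.9 and 103 FPKM, and Nes, which encodes the filament protein nestin, at 1.80, 14.3, 10.5 and 19.9 FPKM. In both libraries with 1 deleted allele Nr0b1 was down past 3-fold, and 1 gene was up, Nes in CAST+/129- and Lefty1 in CAST-/129+. Genes with such an element therefore lay on both sides of wild type with Sox2 left out as well.

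Among 13 genes of proteins found with Oct4 in ESCs, Nr0b1 was past 3-fold down in all 3 mutant libraries, and Sall1 and Esrrb in CAST-/129- as well. Sall1, a spalt-like relative of Sall4, was at 75.8, 39.1, 24.1 and 21.1 FPKM, where Sall4 was at 56.5 FPKM or more. Sall2 and Sall3 were below 5 FPKM in every library. The chromatin subunits Chd4, Mta2, Hdac1 and Hdac2 were between 91.7% and 133% of wild type in all mutants. The median log2 differences of the list were -0.08, -0.04 and -0.31, beside -0.03, -0.06 and -0.08 over genes with a mean of at least 1 FPKM.

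Of 10 regulators of Pou5f1, Klf4 was past 3-fold down in every mutant library, and Nr5a2 and Esrrb in CAST-/129- too. Nr5a2, a nuclear receptor that binds the Pou5f1 promoter, was at 19.8, 10.4, 7.49 and 1.92 FPKM. Cdx2, which opposes Oct4 in trophectoderm, stayed at or below 1.59 FPKM. Nr6a1 was at 18.1, 17.6, 20.2 and 18.1 FPKM, and Nr2f2 at 0.265, 0.891, 1.60 and 2.68 FPKM. The median log2 difference in CAST-/129- was -0.60, beside -0.08 over genes with a mean of at least 1 FPKM. The list mixes genes that raise Pou5f1 with genes that oppose it, so its median has no direction for Pou5f1. None of 12 other POU genes measured passed 3-fold, and Pou2f1, which encodes Oct1, was the highest of them at 15.7, 10.02, 9.57 and 9.72 FPKM.

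Around Fgf4, 12 genes of receptors, feedback and related ligands were measured. In CAST-/129+ and in CAST-/129- 2 were up, Fgf5 and Fgf8, and 1 was down, the ERK target Etv4, which was at 47.1 FPKM in the wild type clone, while CAST+/129- had 17.2, CAST-/129+ had 9.78 and CAST-/129- had 10.7. None passed in CAST+/129-. Fgf5 was at 0.129, 4.01, 26.9 and 24.5 FPKM. Spry4, a feedback inhibitor of the pathway, was at 46.2, 22.2, 16.0 and 13.2 FPKM, and Fgfr4 at 9.84, 1.69, 1.86 and 1.21 FPKM, both within 3-fold on the scale with 4 FPKM added. The list was mixed, since Etv5 was at 62.7, 63.6, 57.5 and 46.2 FPKM and Fgfr2 at 6.56, 9.72, 9.20 and 8.41 FPKM. Its median log2 differences were -0.08, -0.28 and -0.40, beside -0.03, -0.06 and -0.08 over genes with a mean of at least 1 FPKM.

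Of 12 osteopontin receptors and relatives in its gene family, Cd44 was past 3-fold up in CAST-/129-, at 0.634, 6.05, 3.49 and 13.4 FPKM. Itgb1, an integrin subunit, was at 72.5, 107, 83.7 and 137 FPKM. Other subunits went the other way, with Itga5 at 48.1, 36.2, 21.0 and 35.1 FPKM and Itga9 at 2.87, 0.616, 1.07 and 1.23 FPKM. The list had median log2 differences of -0.01, 0.01 and 0.16, beside -0.03, -0.06 and -0.08 over genes with a mean of at least 1 FPKM. The linked family genes Ibsp, Dmp1, Dspp and Mepe were all at or below 0.332 FPKM, where Spp1 was at 77.8 FPKM or more. None of the 5 SCF partners of F-box proteins passed 3-fold, and Skp1a, the adaptor that F-box proteins bind, was at 59.6, 108, 128 and 108 FPKM.

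The nearest protein-coding genes on each side of the members, without overlap with them, were measured as well. Their distances ran from 1368 bp, for Zfp13 from Zscan10, to 1413575 bp, for Neto1 from Fbxo15, so not all are close. Of these 14 neighbours, 8 were at or below 3.92 FPKM in every library, and none passed 3-fold, with log2 differences from -0.60 to 1.31. Tcf19, 1957 bp from Pou5f1, was at 5.10, 9.55, 6.58 and 5.68 FPKM. Atp9a and Zfp64 lay beside Sall4, Zfp13 and Mmp25 beside Zscan10, and Cyb5 beside Fbxo15. Cyb5, which encodes cytochrome b5, was at 29.4, 39.1, 59.4 and 52.7 FPKM, and so was above wild type in CAST-/129-, where Fbxo15 was below it. The 8 low neighbours were H2-Q10 beside Pou5f1, Kndc1 and 6430531B16Rik beside Utf1, Fgf3 and Fgf15 beside Fgf4, Neto1 beside Fbxo15, and Mepe and Gm10047 beside Spp1.

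For each member the 3 genes with the most alike differences were found among the 7014 genes, by the distance of their log2 differences over the 3 mutant libraries. Sall4 had the closest, Dhx8, Cab39l and Ankib1, at distances of 0.012 to 0.024. Zscan10 was followed by Gm3571, Gm10146 and Gtpbp1 at 0.043 to 0.044, Utf1 by Slc29a2, 9130401M01Rik and Zfp593 at 0.080 to 0.105, and Pou5f1 by Mcee, Ptch1 and Gm5518 at 0.094 to 0.163. Fgf4 was followed by Tmem20, E130012A19Rik and Gm14323 at 0.049 to 0.147. The least closely matched were Fbxo15, with Pla2g10, Rab27a and Zcwpw1 at 0.194 to 0.307, and Spp1, with Pcolce, Grtp1 and Fn1 at 0.126 to 0.445. Fn1, which encodes fibronectin, was at 191, 110, 104 and 210 FPKM. With 7014 candidates and 3 values a gene, close matches say nothing of a link.

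Promoter marks of the members in unedited cells were read within 2 kb of the start. H3K27ac was over 5-fold at all 7 members in F123 and in J1, beside 27.6% and 21.8% of 22367 protein-coding starts. H3K4me3 was over 5-fold at 6 of 7, beside 45.8%. All members are genes expressed in ESCs, and expressed genes as a group were not compared. No input library was used, and the F123 and J1 folds were not compared as levels, since 5.10 and 10.5 reads stood behind each distinct alignment and the libraries differ in depth.

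Pou5f1 had the highest promoter H3K27ac of the members in F123, at 101-fold (90.5 to 113), a level reached by 22 of the 22367 starts, itself included. Zscan10 followed at 87.3-fold (77.5 to 98.1) and Sall4 at 68.9-fold (59.4 to 79.6). Fbxo15 was at 51.5-fold, Fgf4 at 43.1-fold, Utf1 at 34.7-fold and Spp1 at 24.8-fold (19.0 to 31.7). The intervals of all neighbours in this order overlapped, which does not show that neighbours were alike, and their differences were not tested.

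In J1, Zscan10 was at 51.7-fold (48.2 to 55.5), Fbxo15 at 47.2-fold (43.2 to 51.4) and Pou5f1 at 43.1-fold (39.8 to 46.5). Sall4 was at 25.6-fold, Fgf4 at 18.9-fold, Utf1 at 16.1-fold and Spp1 at 12.5-fold (10.7 to 14.6). Sall4 stood apart from Pou5f1 above it and Fgf4 below it, while the other neighbours overlapped. Spp1 was the lowest member in both lines.

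H3K4me3 gave another order. Fgf4 was highest at 27.9-fold (24.8 to 31.2), followed by Sall4 at 23.1-fold, Utf1 at 19.4-fold and Pou5f1 at 18.2-fold (15.9 to 20.7). Zscan10 was at 8.74-fold, Fbxo15 at 7.61-fold and Spp1 at 3.83-fold (2.79 to 5.12), a level reached by 50.9% of all starts. The H3K4me3 levels of Zscan10 and Fbxo15 were reached by 30.4% and 35.1% of all starts, and their F123 H3K27ac levels by 0.197% and 1.12%. Intervals of neighbours in this order overlapped except between Pou5f1 and Zscan10 and between Fbxo15 and Spp1.

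**Figure D4:**
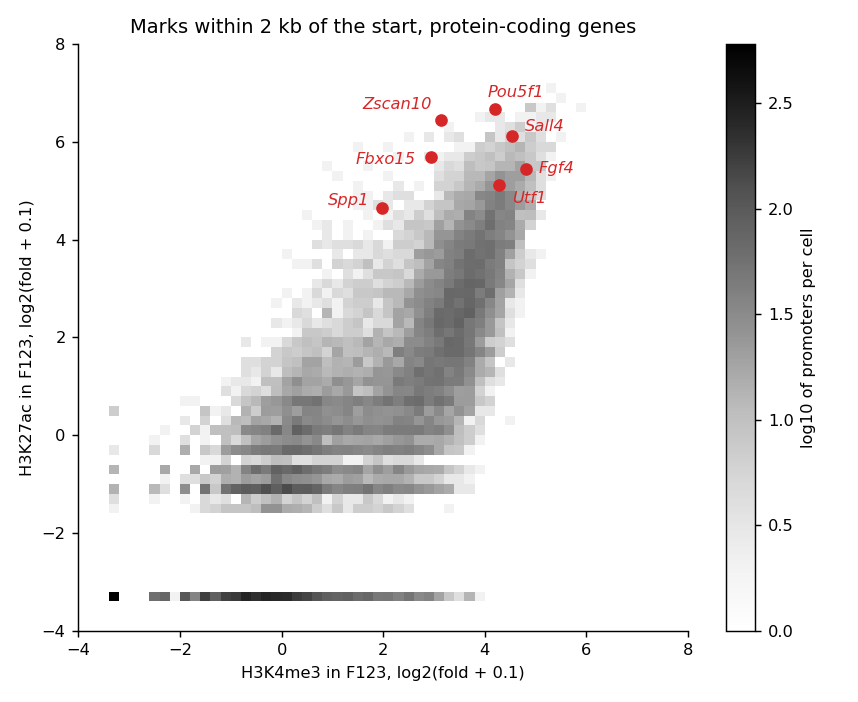
H3K27ac against H3K4me3 within 2 kb of protein-coding starts in F123, each as log2 of the fold over the chromosome mean plus 0.1, with the number of starts in each cell as grey on a log scale and the 7 members as red points. Zscan10, Fbxo15 and Spp1 lie to the left of the main cloud at their H3K27ac level, at 8.74, 7.61 and 3.83-fold H3K4me3.

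The marks were then followed in 1 kb bins over 20 kb on each side of the start. At Pou5f1, H3K27ac over 5-fold ran without a gap from 10000 bp upstream to 10000 bp downstream in F123. The highest bin, 141-fold, was at 2000 to 1000 bp upstream and holds the composite match at its upstream edge. The next, 121-fold, lay just before the start, and its 99 alignments against 115 are within counting error. In J1 the bin with the match was highest, at 69.0-fold. H3K4me3 was highest in the bin just after the start, at 39.4-fold. A smaller H3K4me3 peak of 13.0-fold lay 10000 to 11000 bp after the start.

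At Fgf4 the highest H3K27ac bin lay away from the promoter, 4000 to 3000 bp upstream, with 98.6-fold for F123 and 58.4-fold for J1, within a run over 5-fold from 11000 bp upstream to 8000 bp downstream in both. In F123 it held 64 alignments, against 50 at 3000 to 2000 bp upstream and 46 just after the start. In J1 it held 189, against 162 at 3000 to 4000 bp after the start. Its place as highest is thus within counting error of the next bin in each line. At Utf1 no single bin stood out. In F123 the bin 2000 to 3000 bp after the start held 55 alignments (84.7-fold) and the bin just after the start 51 (78.6-fold), while in J1 the bin 6000 to 7000 bp after the start held 179 (55.3-fold) and that at 2000 to 3000 bp held 168 (51.9-fold), so the highest position in each line is within counting error of the next. At Spp1 the bin 7000 to 8000 bp after the start, with 36 alignments (56.6-fold) for F123 and 93 (28.7-fold) for J1, was level within counting error with the bin just before the start, which held 35 (55.1-fold) and 91 (28.1-fold). At Fbxo15 the highest bin was 2000 to 1000 bp upstream in both, at 87.3-fold and 75.0-fold. In F123 it held 47 alignments, against 31 just after the start, which is within counting error. At Zscan10 and Sall4 the highest bin was within 2 kb after the start in both lines. At Sall4 in F123 it held 97 alignments, against 81 just after the start, within counting error. At Sall4 in J1 the 3 bins after the start were level within counting error, at 133, 130 and 125 alignments. At Zscan10 the highest bin held 94 alignments in F123 and 239 in J1. The bin just before the start held 71 and 205, within counting error of it.

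**Figure D5:**
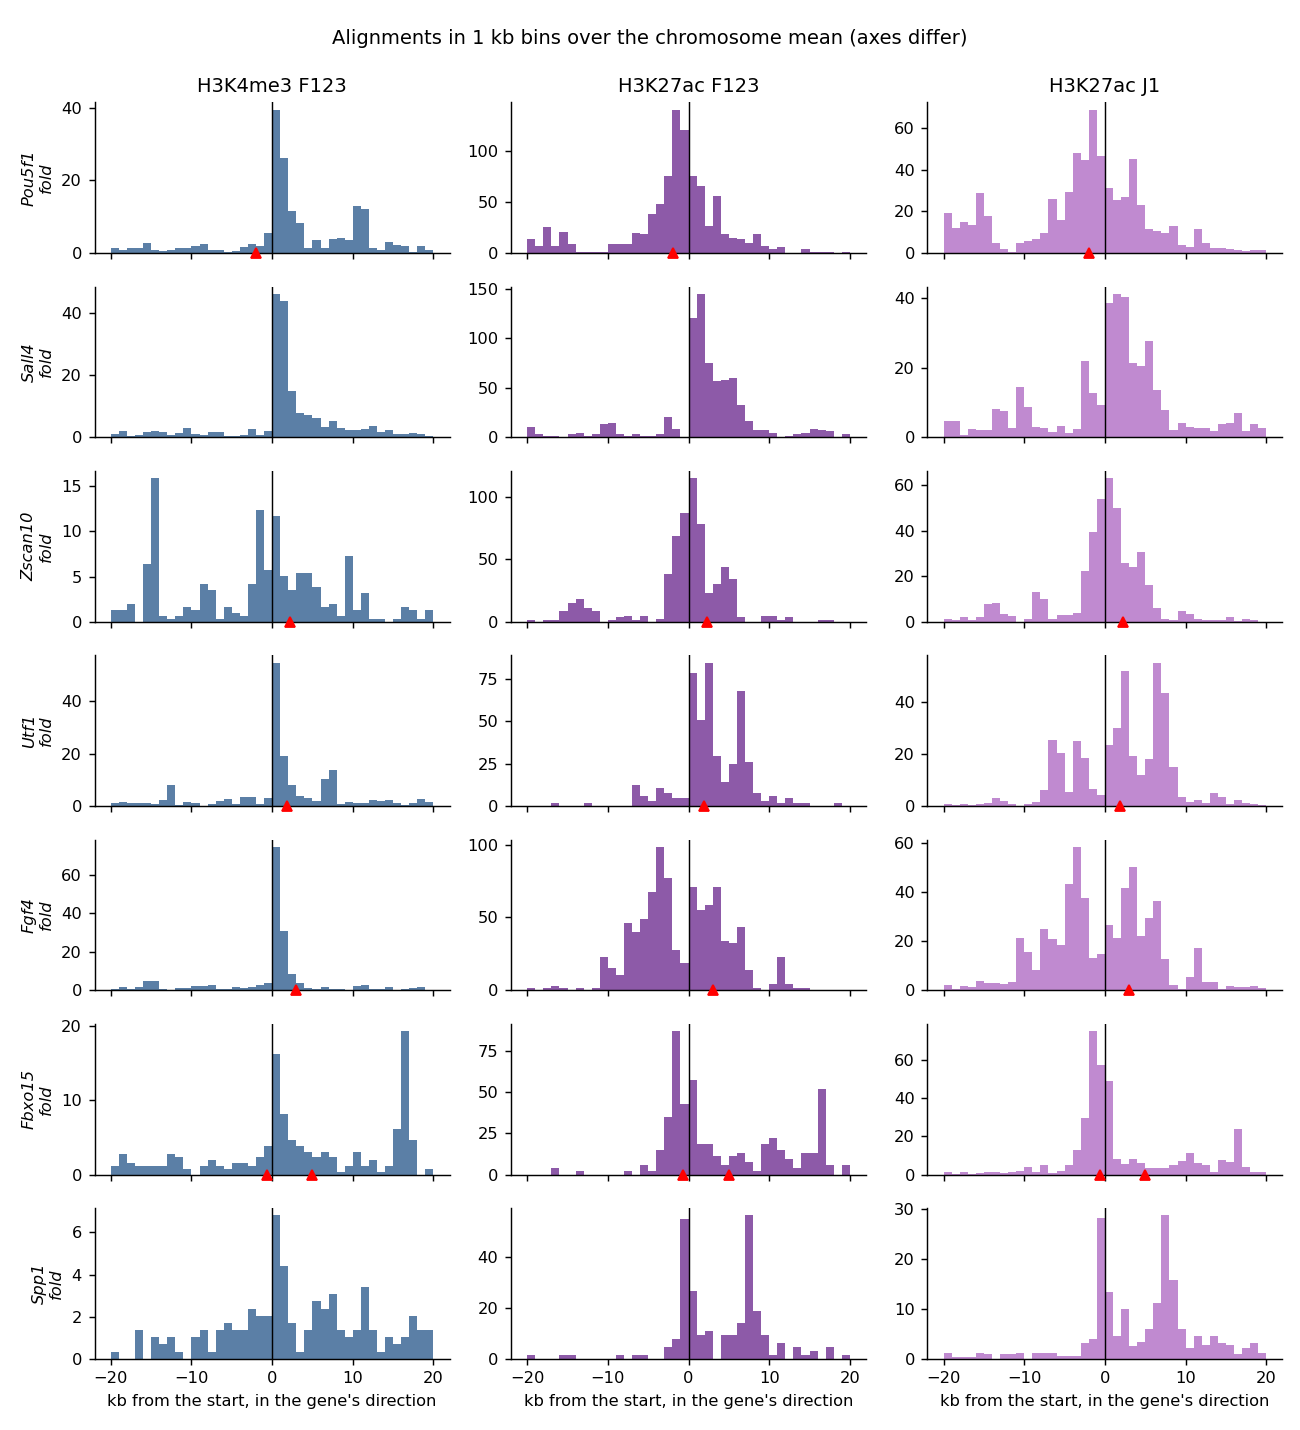
Fold over the chromosome mean in 1 kb bins by distance from the start, for H3K4me3 in F123 and H3K27ac in F123 and J1, with 1 row for each gene and an axis of its own in each panel. Red triangles mark matches to the composite element with up to 2 mismatches, and H3K4me3 is highest just after the start in Pou5f1, Sall4, Utf1, Fgf4 and Spp1.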

How the data were processed

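RNA-seq was performed on 4 F123 clones and ChIP-seq on 3 samples, with 1 library for each condition, 7 in all, grouped by their labels. PolyA+ RNA libraries were strand-specific. The authors mapped reads to mm9, naming Novoalign for RNA-seq and, in the submitters' processing notes, Bowtie, and deposited aligned positions with the count of reads behind each. Intronic alignments are nearly absent from the RNA-seq files, in which 77.7% to 85.2% of 17260 genes with introns of at least 2 kb had none, so that a planned intronic readout was not used. The labels and the study's methods name different H3K4me3 antibodies.

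Distinct alignments were assigned by midpoint to exonic bases that belong to 1 gene of the sense strand, for genes with at least 200 such bases. FPKM used the alignments on those genes as library size, with 4 added and a 3-fold threshold from the study's methods. ChIP-seq 5′ ends within 2 kb of starts were divided by the chromosome mean. Named genes were the 7 members, up to 4 examples of each list, the nearest coding genes and the 3 genes most alike over the mutants. Some lists name more genes, which were chosen after their values were seen. Members and lists were chosen with earlier results of these data known. Pou3f1, Tfcp2l1 and Tfap2c of the lists had no row. The 3-fold rule and the intervals were run on simulated Poisson counts, the assumption that the intervals rest on. The simulation held no identical reads and no spread between clones, so it says nothing of either. Alternatives changed library size, identical alignments, strand, pseudo-value, threshold, thinning, windows and mismatches. Reads thinned and then collapsed, Pou5f1 without shared stretches and covered lengths were added after seeing the data. The scripts ran in Python 3.11.15 with pandas 2.3.3 and numpy 2.4.6, intervals came from scipy 1.17.1 and plots from matplotlib 3.10.9.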

Additional observations from a re-analysis of the deposited data

How the results depend on the processing

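The counts of members past 3-fold stayed at 0 in every mutant library under the other settings, except that 1 member (Spp1) was down in CAST-/129+ by reads and at a 2-fold threshold, and 2 (Fgf4 and Fbxo15) were down in CAST-/129- at a 2-fold threshold. Over the settings of window, reads, background and threshold, the H3K27ac promoter counts stayed at 7 and the H3K4me3 count was between 4 and 6. Members with a composite match numbered 5 with up to 2 mismatches and 1 within 2 kb. Levels relative to wild type whose interval excluded 100% kept their side of 100% under other library sizes, both strands, 5′ ends and coding exons. They crossed it for Pou5f1 in CAST-/129+ by reads (79.5%) and after thinning reads (96.0%), and for Spp1 in CAST-/129- by reads (95.02%) and after thinning reads (98.6%). By reads, 4 of the 21 ratios stayed within their interval, 15 left it on the same side of 100% and 2 crossed 100%. After thinning reads these counts were 7, 12 and 2, so the intervals do not cover how identical reads are treated. Counting each position once caps abundant genes by construction, since a gene cannot give more positions than it has bases. There Pou5f1 was at 148% in CAST+/129- and 212% in CAST-/129-, Sall4 at 110.2%, 112% and 112% in CAST+/129-, CAST-/129+ and CAST-/129-, Utf1 at 173% in CAST-/129-, and Spp1 at 115% in CAST+/129- and 106% in CAST-/129+. No paired analysis was possible because each condition has 1 library. No replicate could be left out for the same reason, so clone-to-clone spread is not known, and depth limits CAST-/129- most.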
